A study of Mus musculus with 10 samples.

Results

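Voltage-gated calcium channels open when the membrane depolarises and let calcium into the cell. In atrial muscle they carry the inward current that triggers calcium release from the sarcoplasmic reticulum, and in pacemaker tissue they contribute to the slow depolarisation before each beat. A large pore-forming subunit sets the current type, L-type (long-lasting) or T-type (transient and opening at more negative voltages). L-type pores are held at the membrane and tuned by an intracellular beta subunit and an extracellular α2δ subunit, which is anchored to the outer face and raises the number of channels at the surface. The 7 genes described here were chosen by name: the L-type pores Cacna1c and Cacna1d, the T-type pores Cacna1g and Cacna1h, the beta subunit Cacnb2, and the α2δ subunits Cacna2d1 and Cacna2d2. They are 7 of the 54532 genes in the deposited count table, each with 1 row under its symbol, and all 7 met the filter on low counts.

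The tissue was the portion of the mouse left atrium next to the pulmonary veins, profiled by RNA sequencing and taken after the appendage and most of the vein length had been cut away. The 4 control mice (Ctrl) were R26creERT2/creERT2; Tbx5+/+, and the 6 conditional mutants (CKO) were R26creERT2/creERT2; Tbx5flox/flox. Both groups were therefore homozygous for a tamoxifen-inducible Cre at the ROSA26 locus, which is active in most cell types, and both received tamoxifen by intraperitoneal injection on 3 days at 6 weeks of age. Tissue was collected 1 week after treatment, at 7 weeks. Tbx5 is a T-box factor needed for atrial development and a stable atrial rhythm, and the study asked which genes of this region depend on it.

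Summed counts ran from 8602794 to 10040808 per library. Levels are in CPM, counts per 1000000 of the TMM-scaled library total, values are mean ± SD (n = 4 Ctrl, n = 6 CKO), log2 fold changes are CKO minus Ctrl, and positions are on GRCm38. The coverage of Tbx5 exon 3 over that of its median exon was 0.903 to 1.70 in Ctrl and 0.175 to 0.618 in CKO, so the libraries followed their labels, while total Tbx5 averaged 134 ± 31.6 CPM in controls and 268 ± 105 CPM in mutants (edgeR adjusted p = 0.101). Total Tbx5 was at most 159 CPM in Ctrl and at least 167 CPM in CKO. General knowledge of this floxed allele, not the labels, places exon 3 between the loxP sites. Atrial muscle markers such as Myl7 were present in every library. 2 libraries stood apart: the airway gene Scgb1a1 reached 862 CPM in Ctrl 3 and 1452 CPM in CKO 4, against at most 42.0 CPM elsewhere. Summed CPM of 7 cardiomyocyte markers was 65139 in Ctrl 3, against 101516 to 106084 in the other Ctrl libraries, and 68964 to 126160 in CKO. Most of the Ctrl 3 sum was Ttn (41952 CPM). Among controls, Myh6, Actn2 and Ttn were lowest in Ctrl 3, while Tnni3 was highest there (2766 CPM). Tnnt2, Actc1 and Pln in Ctrl 3 lay within the range of the other controls. Summed CPM of 6 neuron markers was 128 in Ctrl 4, against 8.14 to 45.4 in the other 9 libraries.

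Both L-type pore genes carry a pair of exons of equal length of which a transcript uses either the upstream or the downstream copy, and which encode the last membrane-spanning segment of the first of the pore's repeats. The exons are shown because the 2 genes had most of their coverage on different copies. Sequences are from the GENCODE transcripts of GRCm38, 5′ to 3′ on the minus strand, and capitals mark the bases at which the 2 copies of the same gene differ. The Cacna1c copies are at chr6:118742265-118742368 (upstream) and chr6:118741871-118741974 (downstream), each a coding exon of 104 bases. The Cacna1d copies are at chr14:30171956-30172059 (upstream) and chr14:30171296-30171399 (downstream), also of 104 bases.
Cacna1c upstream exon: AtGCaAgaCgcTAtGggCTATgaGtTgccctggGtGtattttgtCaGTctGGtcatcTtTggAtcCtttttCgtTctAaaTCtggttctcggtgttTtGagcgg
Cacna1c downstream exon: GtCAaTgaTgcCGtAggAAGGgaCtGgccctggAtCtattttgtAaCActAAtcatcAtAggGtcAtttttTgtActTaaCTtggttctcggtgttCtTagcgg
Cacna1d upstream exon: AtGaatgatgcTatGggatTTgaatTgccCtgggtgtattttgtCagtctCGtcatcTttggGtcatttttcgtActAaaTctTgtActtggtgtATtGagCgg
Cacna1d downstream exon: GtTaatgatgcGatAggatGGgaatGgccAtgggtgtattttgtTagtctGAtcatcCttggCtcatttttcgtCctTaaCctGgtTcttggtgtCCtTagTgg

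The copies differed at 32 of 104 bases in Cacna1c (69.2% identity) and at 22 of 104 in Cacna1d (78.8% identity). In Cacna1c the upstream exon carried most of the coverage, 92.1 ± 5.71% of the pair in Ctrl and 86.9 ± 3.30% in CKO. Its coverage was 17.3, 14.6, 3.80 and 11.5 reads per base in Ctrl 1 to 4, against 1.73, 0.48, 0.69 and 0.44 for the downstream exon. In CKO the upstream exon stood at 8.74 to 23.3 reads per base and the downstream exon at 1.44 to 2.90. The shares of the groups overlapped, between 84.6% and 96.8% in Ctrl and between 83.4% and 92.6% in CKO. In Cacna1d the order was the opposite, at a lower depth: the downstream exon had 0.67 to 4.14 reads per base in Ctrl and 0.79 to 3.30 in CKO, and the upstream exon 0 to 0.48 in Ctrl and 0 to 1.68 in CKO. The upstream exon of Cacna1d was at 0 in 6 of 10 libraries. Exon use is described here without a test, because these exons were chosen after the coverage had been seen.

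Across the 7 genes, Cacna2d2 fell in CKO and the other 6 did not pass the test. In edgeR's quasi-likelihood test with Benjamini-Hochberg adjustment over 17752 genes, 1 of 7 members was called lower and 0 higher; 1.26% of all tested genes were called lower, 1.54% higher and 2.80% in either direction. A second member, Cacna1g, was lower at the 0.05 threshold only before adjustment and is not counted as called. The share of all tested genes lower before adjustment is not given, so that looser reading has no background to compare with. The 7 had a median of -0.37 on the log2 scale, against -0.03 over all tested genes, with 3 positive and 4 negative values. In bulk tissue, fewer cells of a type and less RNA per cell cannot be told apart.

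Cacna2d2 encodes an α2δ subunit that supports calcium channel surface expression and is best known from the cerebellum, where mouse mutants of the gene are ataxic. The gene is on the plus strand at chr9:107399612-107529343 (ENSMUSG00000010066). Its level was 29.5, 39.4, 31.2 and 55.7 CPM in Ctrl 1 to 4. The CKO libraries were at 7.16, 9.13, 19.9, 8.49, 4.47 and 11.1 CPM. Every CKO library was below every Ctrl library, and CKO 3 was the nearest to the controls. Such a gap between groups with CKO lower was found for 2.70% of tested genes. The mean fell from 39.0 ± 12.0 to 10.04 ± 5.30 CPM, a 3.88-fold decrease (log2 fold change -1.96, SE 0.34, edgeR adjusted p = 0.0129). Without Ctrl 4, the library with the highest neuron marker sum, the change was -1.73 (edgeR adjusted p = 0.0468). Ctrl 3, with the lowest cardiomyocyte marker sum of all libraries but the highest atrial muscle marker sum (20342), was at 31.2 CPM. CKO 3, with the highest cardiomyocyte marker sum (126160), was at 19.9 CPM. The airway-rich libraries Ctrl 3 and CKO 4 lay inside the ranges of their groups, and without both the change was -1.98 (edgeR adjusted p = 0.035). Atrial muscle markers moved with the groups: 5 of 6 were called lower, and their summed CPM was 13099 to 20342 in Ctrl and 4413 to 6582 in CKO. Of 6 sinoatrial node markers 3 were called lower, with sums of 110 to 202 CPM in Ctrl and 90.8 to 155 CPM in CKO. Their part in the Cacna2d2 result was not tested.

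**Figure D1:**
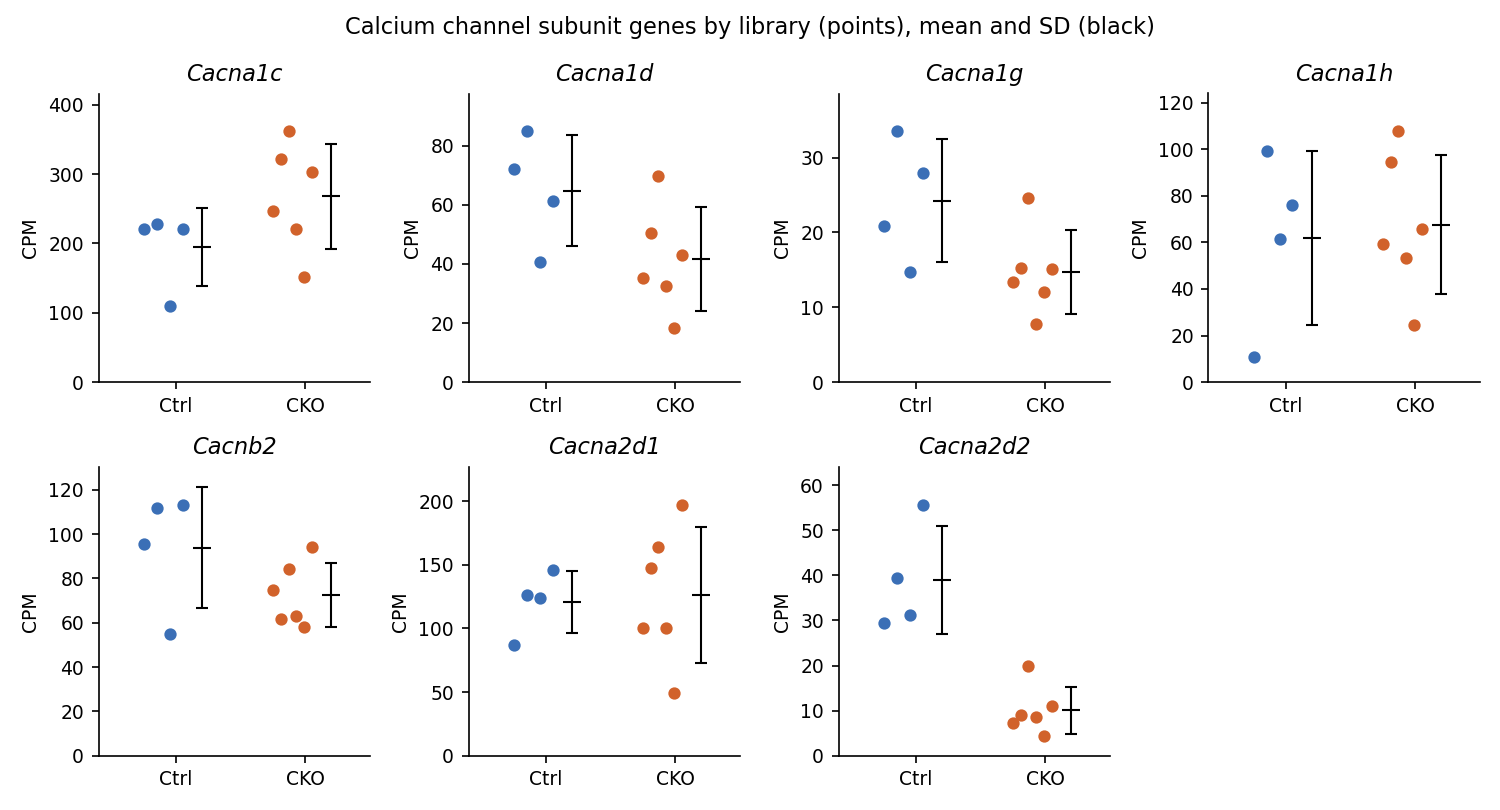
CPM of the 7 calcium channel subunit genes in each library, with 4 Ctrl libraries in blue and 6 CKO libraries in orange; black marks are the mean and SD, and each vertical axis starts at 0. The groups are separate for Cacna2d2, with the lowest Ctrl library at 29.5 and the highest CKO library at 19.9, and overlap for the other 6 genes.

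In group means the lower Cacna2d2 signal ran along nearly all exons that had coverage. Coverage was summed over transcripts for each of the 39 exons of transcript ENSMUST00000168532 and scaled to 1000000 TMM-scaled counts (scaled reads per base). The CKO mean was below the Ctrl mean in 38 of 39 exons, the exception being a 21-base exon that was at 0 in all Ctrl libraries. In 21 exons the lowest Ctrl library was above the highest CKO library. Exon 39, the last and longest at 2023 bases, did not show the decrease in every control. There Ctrl 1 and Ctrl 2 had 0.0257 and 0.0374, below every CKO library (0.0653 to 0.154). Ctrl 3 and Ctrl 4 had 0.289 and 0.547 at this exon. At exon 28 the Ctrl mean was 0.944 and the CKO mean 0.172 scaled reads per base. Ctrl libraries had at least 0.05 reads per base over 36 to 37 exons, and CKO libraries over 19, 23, 36, 19, 12 and 28 exons in CKO 1 to 6. Exon 1 had a mean of 0.00959 in Ctrl and 0 in every CKO library, and exon 2 a mean of 0.0288 in Ctrl and 0 in every CKO library. The annotated start of this transcript was thus almost without reads in both groups. The exon profile was chosen after the gene's change was known and is given without a test.

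**Figure D2:**
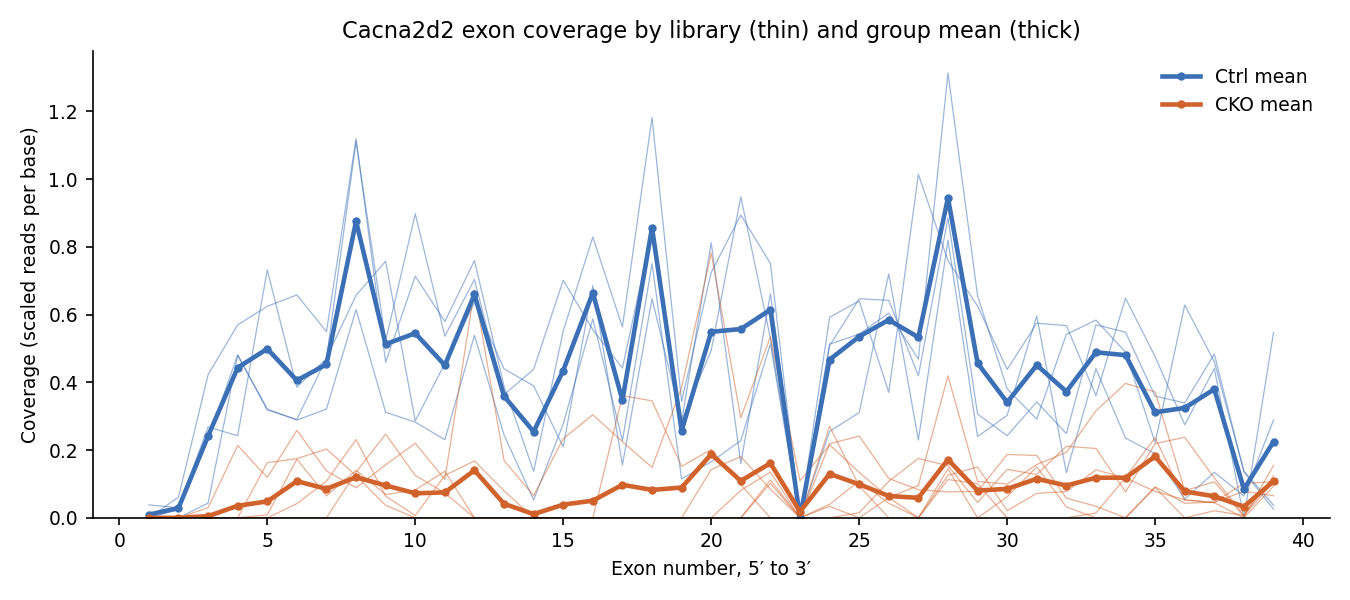
Coverage of the 39 exons of a Cacna2d2 transcript in scaled reads per base (vertical) against exon number from 5′ to 3′ (horizontal); thin lines are libraries and thick lines the means of 4 Ctrl (blue) and 6 CKO (orange) libraries. The Ctrl mean reaches 0.944 at exon 28, where the CKO mean is 0.172, and both means are near 0 over exons 1 and 2.

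Cacna2d1, the main α2δ subunit of heart and skeletal muscle (ENSMUSG00000040118, chr5:15934691-16374511, plus strand), was at 87.1, 126, 124 and 146 CPM in Ctrl and at 100, 148, 164, 100, 49.1 and 197 CPM in CKO. The groups overlapped over nearly their whole range, and CKO held both the lowest and the highest library. The log2 fold change was 0.07 (SE 0.32, edgeR adjusted p = 0.938), and its sign turned in 5 of 20 alternative settings. Within a library, the Cacna2d2 signal was 33.8%, 31.2%, 25.2% and 38.1% of the Cacna2d1 CPM in Ctrl. In CKO it was 7.16%, 6.18%, 12.1%, 8.48%, 9.11% and 5.61%. All Ctrl libraries were above all CKO libraries in this ratio.

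The change in balance between paired subunits was tested on log2 ratios of gene TPM, a transcript level that is divided by length. The TPM ratio of Cacna2d2 to Cacna2d1 was -1.83 ± 0.42 in Ctrl and -4.40 ± 0.30 in CKO on the log2 scale, a difference of -2.57. An exact two-sided permutation test over 210 relabellings gave p = 0.00476, the smallest it can give, and 0.0143 after adjustment over 3 pairs. The ratio was lower in 6 of 6 CKO libraries than in any Ctrl library. Cacna2d2 already separated the groups by itself, so this ratio largely restates its decrease and is not separate support for it. For the T-type pair Cacna1g to Cacna1h the difference was -0.72, with an exact permutation p of 0.433 (adjusted p = 0.433). Without Ctrl 1, whose Cacna1h count was low, that difference was 0.10 (exact permutation adjusted p = 0.869).

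For the L-type pair Cacna1d to Cacna1c the result depended on how transcripts were added up. The log2 TPM ratio was -1.56 ± 0.57 in Ctrl and -2.98 ± 0.98 in CKO (exact two-sided permutation p = 0.0333, adjusted p = 0.05, which does not pass). From CPM, the Cacna1d count was 32.7%, 37.3%, 36.9% and 27.7% of the Cacna1c count in Ctrl. In CKO it was 14.4%, 15.6%, 19.3%, 14.8%, 12.1% and 14.2%. The count ratio was lower in 6 of 6 CKO libraries than in any Ctrl library, a log2 difference of -1.16 with an exact two-sided permutation p of 0.00476, the smallest possible, and 0.00714 after adjustment over 3 pairs. Coverage times length gave -1.17 with the same adjusted p. The counts were themselves made from StringTie coverage, so these scales are nearly the same measure and not separate support for each other. Ctrl 3, the library with the lowest Cacna1c level, was at 36.9% and stood with the other controls in this ratio.

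**Figure D3:**
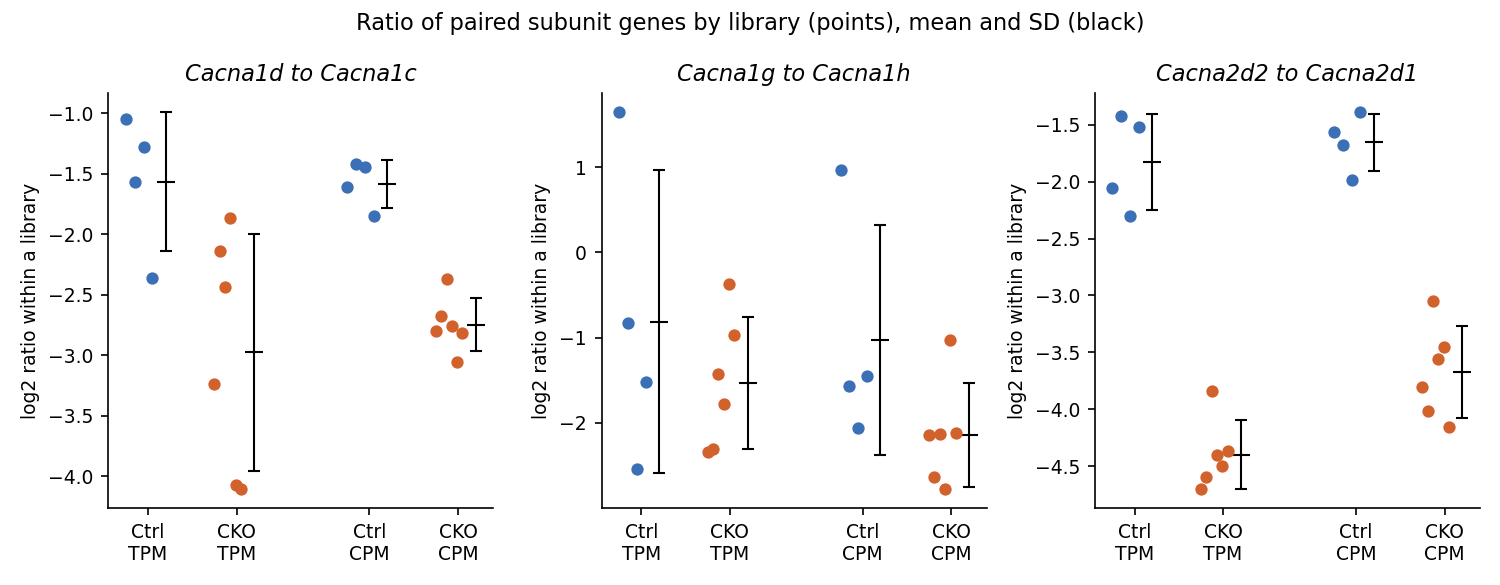
Log2 ratio of 3 pairs of subunit genes within each library, from TPM (left of each panel) and from CPM (right), with 4 Ctrl libraries in blue, 6 CKO libraries in orange and the mean and SD in black. The Cacna2d2 to Cacna2d1 ratio separates the groups on both scales, and the Cacna1d to Cacna1c ratio on the CPM scale, where the lowest Ctrl library is at 27.7% and the highest CKO library at 19.3%.

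Neither L-type pore gene passed the test by itself. Cacna1c, the main L-type pore of heart muscle (ENSMUSG00000051331, chr6:118587240-119196418, minus strand), was at 221, 227, 110 and 221 CPM in Ctrl and at 246, 322, 362, 221, 152 and 302 CPM in CKO. 3 of the 4 controls lay close together, and Ctrl 3 was far below them. The log2 fold change was 0.46 (SE 0.26, edgeR adjusted p = 0.401). Cacna1d encodes an L-type pore that opens at more negative voltages and is known from the sinoatrial node and atrium. The gene is on the minus strand, ENSMUSG00000015968, chr14:30039939-30491455. It was at 72.3, 84.9, 40.5 and 61.1 CPM in Ctrl and at 35.4, 50.3, 69.8, 32.5, 18.3 and 42.9 CPM in CKO. Ctrl 3 and CKO 3 made the groups overlap. The log2 fold change was -0.64 (SE 0.31, edgeR adjusted p = 0.329).

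Neither T-type pore gene passed the test. Cacna1g, a T-type pore that contributes to pacemaking and atrioventricular conduction in the mouse (ENSMUSG00000020866, chr11:94408391-94474198, minus strand), was at 20.8, 33.5, 14.8 and 27.9 CPM in Ctrl and at 13.4, 15.2, 24.6, 7.78, 12.0 and 15.1 CPM in CKO. The lowest library was a CKO library, and CKO 3 was above 2 controls. The log2 fold change was -0.72 (SE 0.29), with an edgeR adjusted p of 0.243 (0.0316 before adjustment). Cacna1h, the other T-type pore of the heart (ENSMUSG00000024112, chr17:25374285-25433783, minus strand), was at 10.7, 99.3, 61.6 and 76.0 CPM in Ctrl and at 59.2, 94.7, 108, 53.4, 24.6 and 65.9 CPM in CKO. Ctrl 1 was the lowest of all 10 libraries, with a median exon coverage of 0.0304 against 0.587 in the highest control (reads per base scaled to 1000000 counts). The log2 fold change of 0.13 (SE 0.51, edgeR adjusted p = 0.926) became -0.22 without Ctrl 1, so no direction can be given.

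Cacnb2 encodes the predominant cardiac beta subunit, which binds the pore from inside and brings it to the membrane. The gene is on the plus strand, ENSMUSG00000057914, chr2:14603088-14987908. It was at 95.7, 112, 54.7 and 113 CPM in Ctrl and at 74.6, 61.5, 84.1, 63.0, 58.1 and 94.2 CPM in CKO. 3 controls were above all CKO libraries, and Ctrl 3 was the lowest of all. The log2 fold change was -0.37 (SE 0.21, edgeR adjusted p = 0.391), and without Ctrl 3 it was -0.55 (adjusted p = 0.0892). For Cacna1c, Cacna1d, Cacna1g and Cacnb2, Ctrl 3 was the lowest control, as it was for the cardiomyocyte marker sum; its part in these results was not tested beyond leaving it out.

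Levels between genes were compared per base, as the median coverage over internal coding exons in the same scaled reads per base, a choice made after the data had been seen. In Ctrl the order was Cacnb2 (1.21 ± 0.234), Cacna1c (0.913 ± 0.281), Cacna2d1 (0.870 ± 0.0969), Cacna2d2 (0.428 ± 0.131), Cacna1d (0.341 ± 0.140), Cacna1h (0.335 ± 0.232) and Cacna1g (0.123 ± 0.0424). Cacna2d1 was above Cacna2d2 in 4 of 4 controls without overlap of their ranges, and every other pair of neighbours overlapped. In CKO the order was Cacna1c (1.21 ± 0.375), Cacna2d1 (1.09 ± 0.356), Cacnb2 (1.01 ± 0.192), Cacna1h (0.370 ± 0.145), Cacna1d (0.218 ± 0.103), Cacna1g (0.0801 ± 0.0306) and Cacna2d2 (0.0466 ± 0.0629). Cacnb2 and Cacna1h were the only neighbours in CKO whose ranges did not overlap. By these means Cacna2d2 stood above Cacna1d, Cacna1h and Cacna1g in Ctrl and below all 6 other genes in CKO. Its place above Cacna1h did not hold in Ctrl 2 (0.552 against 0.587 for Cacna1h) or Ctrl 3 (0.245 against 0.320). Its place below Cacna1g did not hold in CKO 3 (0.157 against 0.129 for Cacna1g) or CKO 6 (0.0798 against 0.0792). The Cacna2d2 value was 0 in CKO 1, CKO 4 and CKO 5, so its CKO mean lies at the floor of this measure. The Cacna1h mean in Ctrl included 0.0304 in Ctrl 1. On the TPM scale Cacna1c led in both groups (81.7 ± 38.0 TPM in Ctrl and 105 ± 49.9 TPM in CKO), followed in Ctrl by Cacnb2 at 72.9 ± 17.3 TPM, and Cacna2d2 was sixth in Ctrl (16.3 ± 5.18 TPM) and last in CKO (3.30 ± 1.86 TPM). Short annotated fragments weigh on TPM: a 954-base Cacna1c transcript took 22.4 ± 17.3% of the gene's TPM in Ctrl and 34.0 ± 17.3% in CKO.

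**Figure D4:**
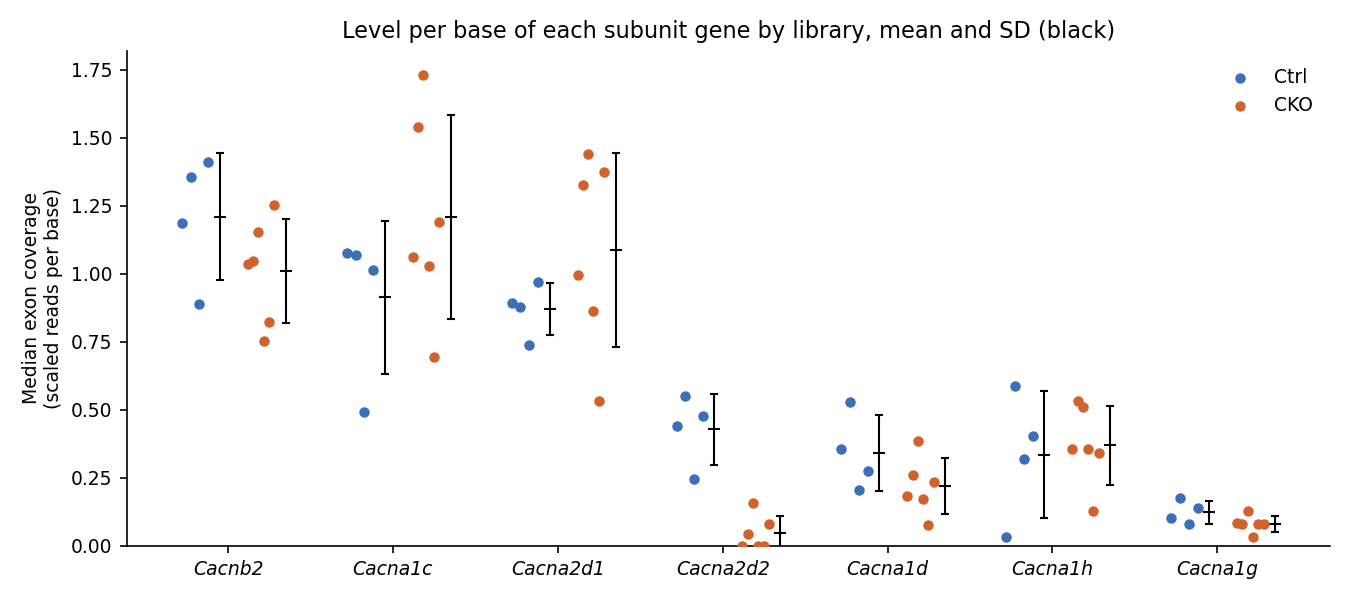
Median coverage over internal coding exons, in scaled reads per base, for each of the 7 genes in 4 Ctrl (blue) and 6 CKO (orange) libraries, with mean and SD in black. Cacnb2, Cacna1c and Cacna2d1 lie highest in both groups, and Cacna2d2 goes from a mean of 0.428 in Ctrl to 0.0466 in CKO.

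Transcript shares gave no call. Of 25 annotated transcripts of the 7 genes with a mean share of at least 10% of their gene's TPM in either group, 0 passed an exact two-sided permutation test after adjustment (smallest adjusted p = 0.493), and 1 had p under 0.05 before it, the 39-exon Cacna2d2 transcript with 59.1 ± 41.7% in Ctrl and 94.2 ± 3.50% in CKO (p = 0.0286, exact permutation). The larger of the 2 group SDs of a share had a median of 16.8 percentage points over these transcripts. 10 of the 25 were shorter than 1500 bases.

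The largest first-exon share was steadier in Cacna1c than in Cacnb2. 3 annotated Cacna1c first exons join the same second exon, and over the 49 bases next to the splice site the most upstream carried 85.7 ± 1.91% of their coverage in Ctrl and 89.9 ± 3.15% in CKO. Its coverage was 12.1 to 26.5 reads per base in Ctrl and 15.8 to 47.5 in CKO. Of 6 annotated Cacnb2 first exons, which give beta subunits with different N-terminal ends, the third from the 5′ end carried 54.4 ± 15.3% in Ctrl and 50.8 ± 9.29% in CKO, and the second 17.7 ± 5.56% and 18.8 ± 1.69%. The group ranges overlapped for each of these. Cacna1c also has a 60-base exon at chr6:118674346-118674405 whose coverage was 40.7%, 32.0%, 40.6% and 101% of its flanking exons in Ctrl and 14.6% to 29.6% in CKO. The groups did not overlap, but the Ctrl 4 value stood far from the other controls, the exon had 1.07 to 7.15 reads per base, and it was singled out after its values were seen. Another 60-base exon between the same flanking exons, at chr6:118674555-118674614, did overlap between the groups. It had 16.5% to 53.6% of their coverage in Ctrl and 13.7% to 46.7% in CKO. A 75-base Cacna1c exon at chr6:118715903-118715977 had 52.4 ± 18.4% and 55.4 ± 21.5% of the coverage of its neighbours. In Cacna2d1, a 57-base exon had 22.5 ± 10.2% in Ctrl and 23.1 ± 15.8% in CKO.

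The wider channel family was read from a list of 26 pore, beta, α2δ and gamma subunit genes that contains the 7. Of its 16 tested genes 0 were called higher and 1, Cacna2d2, lower; their median was -0.51 on the log2 scale, with 11 of 16 negative. Cacna2d3, a further α2δ subunit best known from neurons, averaged 13.3 ± 2.84 CPM in controls and 6.96 ± 1.92 CPM in mutants (log2 fold change -0.94, edgeR adjusted p = 0.0531). Cacna1a, the pore of P/Q-type channels at synapses, was at 7.68 ± 3.26 and 4.62 ± 1.31 CPM (adjusted p = 0.239). Cacna1e, an R-type pore, reached 26.4 CPM in Ctrl 4 and 17.4 CPM in CKO 4 against at most 8.88 CPM elsewhere (edgeR adjusted p = 0.581); the neuron marker sums of these 2 libraries were 128 and 33.7 CPM. The beta subunits Cacnb1, Cacnb3 and Cacnb4 had edgeR adjusted p of 0.445, 0.389 and 0.228.

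Regulators of the channels were read from a list of 30 genes, of which 25 were tested. 1 rose and 0 fell: Cav3, the caveolin of muscle membranes, averaged 36.6 ± 6.25 CPM in controls and 64.6 ± 13.7 CPM in mutants (log2 fold change 0.82, SE 0.17, edgeR adjusted p = 0.0268), and its call was lost in 8 of 20 alternative settings. Of 4 tested skeletal muscle markers 3 were also called higher, Acta1, Ckm and Casq1, with list sums of 553 to 876 CPM in Ctrl and 1096 to 1623 CPM in CKO. Ckm made up most of these sums (702 ± 132 and 1120 ± 161 CPM). Tnnt3 was not called (log2 fold change -0.40, edgeR adjusted p = 0.672), and Myh1 was at 0 CPM in every library. The part of these markers in the Cav3 result was not tested. The median of the 25 was 0.00. Abundant genes among the rest were Ahnak, a scaffold that binds the beta subunit (3762 ± 546 and 4502 ± 173 CPM, adjusted p = 0.286), the ubiquitin ligase Nedd4 (798 ± 258 and 1163 ± 225 CPM, adjusted p = 0.237), the calmodulin genes Calm2 and Calm3 (adjusted p of 0.775 and 0.119) and the kinase gene Camk2d (208 ± 32.5 and 187 ± 39.4 CPM, adjusted p = 0.668), all from edgeR.

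The appendage, the other part of the left atrium, is described from the authors' deposited table, which gives log2 fold changes and false discovery rates (FDR) for 13646 genes and in which all 7 members appear. The appendage libraries came from an earlier study, so region and study of origin cannot be told apart. The 3 comparisons of the table share libraries, and their values are set side by side only. For CKO against Ctrl in the vein region, the members' log2 fold changes differed from the edgeR values above by at most 0.0191. That comparison is therefore not separate support for the edgeR result. Of all genes in the authors' deposited table, 12.2% had an FDR under 0.05 between the vein region and the appendage, 34.7% between CKO and Ctrl in the appendage, and 5.50% between CKO and Ctrl in the vein region. By direction, 8.19% were higher and 4.06% lower in the vein region, 16.8% were higher and 17.9% lower in CKO in the appendage, and 3.03% were higher and 2.47% lower in CKO in the vein region.

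2 of the 7 members were higher in the vein region in the authors' deposited table, Cacna2d2 and Cacna1d. Cacna2d2 had a log2 fold change of 2.41 for the vein region against the appendage (FDR = 2.87e-15), -1.13 for CKO against Ctrl in the appendage (FDR = 0.00332) and -1.97 for CKO against Ctrl in the vein region (FDR = 7.95e-08), all from the authors' deposited table. Cacna1d had 1.91 for the region (FDR = 6.3e-12), -1.18 in the appendage (FDR = 0.000429) and -0.65 in the vein region (FDR = 0.196), likewise from the authors' deposited table. Both genes were therefore higher in the vein region and lower in CKO in the appendage, and for Cacna2d2 the CKO value was also past the threshold in the vein region. Whether the effect of CKO differed between the regions was not tested. The direction of the region comparison is taken from the column name, which does not say which genotypes entered it. The airway gene Scgb1a1 has 13.8 with that sign in the authors' deposited table.

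The other 5 members had an FDR over 0.05 in each of the 3 comparisons of the authors' deposited table. Their region values were -0.18 for Cacna1c, 0.57 for Cacna1g, -0.31 for Cacna1h, 0.14 for Cacnb2 and -0.26 for Cacna2d1 in the authors' deposited table. For CKO against Ctrl in the appendage the authors' deposited table gives 0.34 for Cacna1c, 0.05 for Cacna1g, -0.21 for Cacna1h, -0.38 for Cacnb2 (FDR = 0.0987) and -0.52 for Cacna2d1 (FDR = 0.107). Of the 13 family genes in the authors' deposited table, 4 were higher in the vein region and 0 lower; 1 was higher and 4 were lower in CKO in the appendage; and 2 were lower in CKO in the vein region, Cacna2d2 and Cacna2d3 (-0.95, FDR = 0.0167).

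**Figure D5:**
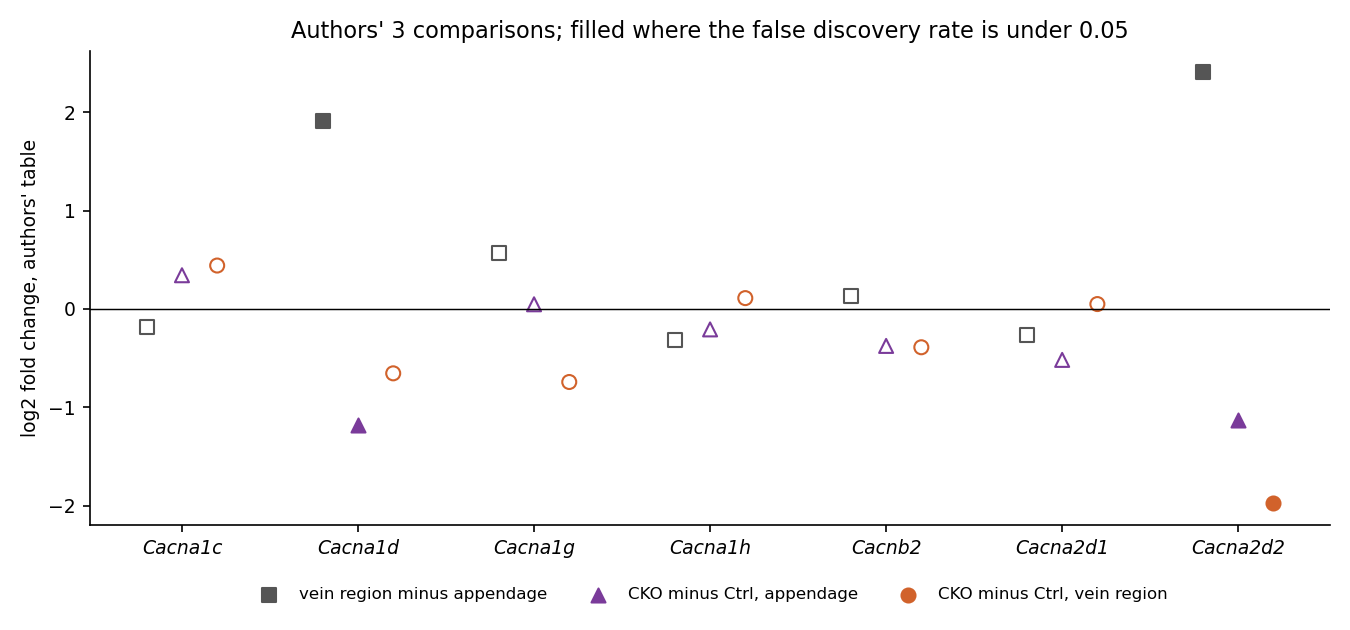
Log2 fold changes of the 7 genes in the authors' deposited table: vein region minus appendage (grey squares), CKO minus Ctrl in the appendage (purple triangles) and CKO minus Ctrl in the vein region (orange circles), filled where the FDR is under 0.05. Cacna2d2 is filled in all 3 comparisons, at 2.41, -1.13 and -1.97, Cacna1d in the first and second, and the other 5 genes in none.

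The genes whose CPM varied most like Cacna2d2 over the 10 libraries were found among 13711 genes with a mean of at least 1 CPM. By Pearson's r of log2 CPM these were Homer1 (0.984), Chrm2 (0.982), Tbc1d1 (0.968), Kcnj3 (0.967) and Gpr22 (0.962). Chrm2 encodes the muscarinic receptor of the heart and Kcnj3 a subunit of the potassium channel it opens. These r hold the difference between the groups, and Homer1, Chrm2, Tbc1d1 and Kcnj3 were themselves lower in CKO (edgeR adjusted p of 0.0155, 0.00559, 0.0139 and 0.00367). With the group means subtracted, so that only the variation among libraries of a group counts, the closest were St6galnac5 (0.966), Gpr22 (0.962), Ylpm1 (0.954), Lin9 (0.939) and Chrm2 (0.938). Gpr22, an orphan receptor gene of heart and brain, and Chrm2 were on both lists. With 10 libraries and this many genes, high r values arise readily, and they are given as a description.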

How the data were processed

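Ribosomal RNA was removed and libraries were made with a TruSeq RNA kit, per the labels' protocols, which also list polyA RNA. Per the submitters' processing notes reads were aligned with TopHat2 2.1.1 to mm10. The authors deposited expected counts per gene, whole numbers made from StringTie 1.3.3 coverage and so not raw read numbers, and per-transcript coverage and TPM on the Ensembl 94 annotation, per the file headers. The authors' deposited table of log2 fold changes, p-values and FDR was only described; its model is not given in the sources used here. 10 columns of appendage libraries in the count table belong to no listed sample and were not used.

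Genes (17752 of 54532) were kept by filterByExpr and tested with edgeR 4.0.16 (R 4.3.3; TMM, quasi-likelihood F test, genotype only, adjusted p under 0.05); the SE of a log2 change is its size divided by √F. In simulated data the test found 7 of 65 genes with a 1.5-fold, 34 of 64 with a 2-fold and 61 of 64 with a 4-fold change for this comparison among 17363 genes. Ratios and shares were tested by exact permutation in Python 3.11.15, also checked on simulated data. DESeq2 1.42.0 and limma 3.58.1 were alternatives. Separate mice per library are per the study's description; replicates differed beyond counting error (chi-square per degree of freedom at least 10.1). Genes were named by rule: the members, called genes of both lists and up to 6 others by mean CPM, and 5 genes by each likeness measure. A gene that this rule names is not reported here. Members and lists were chosen with earlier results of these data known. No member shares its symbol with another row. Annotated genes on the opposite strand overlapped exons of Cacna1d (Chdh, mean 7.73 CPM), Cacna1h, Cacna2d2 (Gm17141, mean 0.119 CPM) and Cacnb2, and since the kit is not stated to mark strand such reads may be shared.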

Additional observations from a re-analysis of the deposited data

Results flagged for a closer look

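1 of 14 groups of member values held a library far from the rest: Cacna1c in Ctrl 3 was at 110 CPM, and the nearest control was at 221 CPM, a gap of 94.1% of the range of the group. Chance alone marks about 1 in 20 such groups. Ctrl 3 also had the lowest cardiomyocyte marker sum (65139 CPM) but the highest atrial muscle marker sum (20342 CPM). Among controls it had the highest Scgb1a1 level (862 CPM). The part of any of these in the Cacna1c value was not tested. Without Ctrl 3 the Cacna1c log2 fold change was 0.27 (edgeR adjusted p = 0.513).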

How the results depend on the processing

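The Cacna2d2 decrease kept its direction in all 20 alternative settings (log2 fold change -2.39 to -1.73) and its call in 19; with a replicate block it was -1.88 (edgeR adjusted p = 0.117), and then 0 members, 0 family genes, 0 regulators and 37 genes in all were called, against 497. Same-numbered libraries did not deviate together (correlations 0.03, 0.09, -0.32 and 0.09), so the numbers are not taken as pairs. Leaving out 1 library at a time gave 190 to 607 called genes (190 without Ctrl 2, 221 without Ctrl 1, 237 without Ctrl 4, 305 without CKO 1, 331 without CKO 2), Cacna2d2 at -2.27 to -1.73, 1 called member each time, 1 to 2 family genes and 0 to 1 regulators. DESeq2 called 1132 genes, 2 family genes (Cacna2d2 and Cacna2d3) and 3 regulators (Cav3 and Calm3 higher, Rrad lower; Calm3 and Rrad named after their values were seen). The same 2 family genes were called with library size only, limma-voom and Xist as covariate. Without both Ctrl 3 and CKO 4, 0 regulators were called. Of the called genes 55.1% were higher in CKO, against 44.1% with library size only, 43.9% in limma on log2(TPM + 1) and 47.9% on log2(TPM + 0.1), 45.8% to 59.3% with 1 library left out, and 29.7% with the block; the TPM fits moved the median of all genes to -0.15 and -0.17. Cacna1h turned to -0.15 and -0.14 in these TPM fits and ranged from -0.22 to 0.46 with 1 library left out. Cacna2d1 was -0.0029 with library size only, -0.042 with limma-voom and -0.11 to 0.23 with 1 library left out. Cacna1c, Cacna1d, Cacna1g and Cacnb2 kept their signs and stayed without a call in all 20. The Cacna1d to Cacna1c ratio was -1.41 from TPM, -1.17 from coverage times length and -1.16 from CPM. The last 2, which are nearly the same measure, passed. With 1 library left out the TPM ratio was -1.68 to -1.19 and did not pass (exact permutation adjusted p of 0.0536 to 0.125). The other scales were not run with a library left out. The Cacna1g to Cacna1h ratio was -1.30 to 0.10 with 1 library left out. The Cacna2d2 to Cacna2d1 ratio was -2.73 to -2.44 with 1 library left out, and -2.73 without both Ctrl 3 and CKO 4 (exact permutation adjusted p = 0.0536). Before adjustment that p was the smallest that 3 against 5 libraries can give. 0 transcript shares passed in any of 13 settings. Causes of these differences were not tested. Low exon coverage limits the Cacna1d, Cacna1g and Cacna2d2 exon values.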
